A study of Mus musculus with 8 samples.

Results

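The genes described here are 10 regulators of the decay of cytokine mRNAs, Zfp36, Zfp36l1, Zfp36l2, Elavl1, Khsrp, Hnrnpd, Zc3h12a, Zc3h12c, Rc3h1 and Rc3h2. They were found by symbol among the 54146 genes of each library, and all 10 were present in all 8 libraries and passed the filter on low counts in every comparison. RNA-seq was performed on primary astrocytes from the cortices of early postnatal C57BL/6 mouse pups, which had been infected with a lentivirus carrying either a Gstm1 shRNA (GSTM1 KD) or a non-silencing shRNA (control KD), selected with puromycin, and depleted of microglia with CD11b antibodies. Control KD and GSTM1 KD astrocytes were left unstimulated (basal) or given 50 ng/ml TNF-α over 6 h, which makes 4 groups of 2 biological replicates. No second Gstm1 shRNA is described for these libraries, so an effect of losing GSTM1 and an effect of that construct cannot be told apart. The labels do not say whether the replicates came from separate litters or cultures, so the p-values measure the spread between these libraries.

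The library totals ran from 17349676 to 34434633 expected counts. Gstm1 was lower in the GSTM1 KD libraries, at 29 and 31.3 CPM (counts scaled to one common library total) against 230 and 377 CPM in the control KD libraries before stimulation, and at 24.3 and 23.3 against 209 and 390 CPM after TNF-α. Astrocyte markers were abundant in all libraries, with a summed level of 10 markers between 1770 and 6240 TPM (a level per transcript length, scaled to one total in all libraries), while 12 microglia and macrophage markers summed to between 52.9 and 65.2 TPM. The astrocyte markers summed to 1790 to 4130 TPM in control KD and 4130 to 6240 TPM in GSTM1 KD before stimulation, and to 1770 to 3940 against 3910 to 5940 TPM after TNF-α, with median log2 fold changes of 0.515 and 0.28. Gfap was at 706 and 2210 against 2330 and 4180 TPM before stimulation. Gfap, Aldh1l1, Aldoc, Glul, Slc1a2 and Gja1 were above both control KD libraries in both GSTM1 KD libraries of each state. Of the 10 markers, 0 passed as higher (adjusted p = 0.234 for Gfap and 0.0875 for Glul before stimulation, edgeR), and 1, S100b, was lower in each state. Sox9 lay the other way without passing, at means of 149 against 110 TPM before stimulation and 86.1 against 68.1 TPM after TNF-α. Slc1a3 was nearly level, at 347 against 342 and 352 against 346 TPM. Aqp4 was at 385 ± 219 (SD) against 380 ± 57.8 TPM before stimulation and 499 ± 260 against 521 ± 54.7 TPM after TNF-α. Markers of fibroblasts and mural cells did not move one way. Of 8 fibroblast and mural markers, 1 was higher and 2 were lower in GSTM1 KD before stimulation, and 2 were higher and 2 lower after TNF-α. Acta2, the most abundant of them, was lower before stimulation at 2110 and 1730 against 3940 and 3520 TPM, while Thy1 was higher at 723 and 794 against 342 and 400 TPM. Their sum was 4070 to 4370 TPM in control KD and 2630 to 2910 TPM in GSTM1 KD before stimulation, and 3400 to 3510 against 2340 to 2490 TPM after TNF-α. The sum of 10 oligodendrocyte lineage markers was 574 to 678 against 494 to 510 TPM before stimulation and 482 to 545 against 399 to 409 TPM after TNF-α, with Olig2 lower in both states (adjusted p = 0.0251 and 0.0101, edgeR) and Olig1 after TNF-α (adjusted p = 0.0497, edgeR), while Mog and Mag were at or near 0. The 3 of 6 ependymal and choroid plexus markers that could be tested all had positive log2 fold changes, with a median of 2.67 before stimulation and 2.78 after TNF-α, and 1 of them, Folr1, was higher in each state (adjusted p = 0.0476 and 0.033, edgeR) at 36 and 55 against 17 and 4 counts and at 35 and 36 against 3 and 7 counts. Folr1 and Ccdc153 were tested only because their GSTM1 KD libraries were high, so these signs, medians and calls are a description. Foxj1, the abundant one, was at a mean of 133 against 134 CPM before stimulation and 98.2 against 123 CPM after TNF-α. The sums of these 6 markers overlapped before stimulation, at 102 to 118 against 76.3 to 118 TPM, and did not overlap after TNF-α, at 93.5 to 104 against 65.1 to 77.5 TPM. The part of these markers in the values below was not tested. In these bulk libraries, fewer cells of a type and less RNA per cell cannot be told apart.

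Many cytokine mRNAs are short-lived because proteins bind their 3′ untranslated regions (3′ UTRs). Zfp36 (tristetraprolin) and its relatives Zfp36l1 and Zfp36l2 are zinc finger proteins that bind AU-rich elements and recruit the CCR4-NOT deadenylase, which shortens the poly(A) tail, and Khsrp (KSRP) also promotes decay of AU-rich mRNAs. Hnrnpd (AUF1) binds the same class of elements with effects that differ between targets, and Elavl1 (HuR) usually stabilizes its targets. Zc3h12a (Regnase-1) is an endonuclease that cleaves stem-loops in mRNAs of inflammation, Zc3h12c (Regnase-3) is its relative, and Rc3h1 and Rc3h2 (Roquin-1 and Roquin-2) bind stem-loops called constitutive decay elements. TNF-α is a classical inducer of Zfp36, and TNF mRNA is in turn a classical Zfp36 target.

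The sequence that Zfp36 proteins prefer is the nonamer TTATTTATT in DNA letters. In 1 annotated transcript per gene (GENCODE M21, GRCm38), it was found on the sense strand in the 3′ UTR of 7.2% of 21024 genes. Of the 10 decay regulators, Zfp36, Zfp36l1, Zfp36l2, Rc3h1 and Rc3h2 each carried it 1 time, and Elavl1 carried it 8 times in overlapping runs within a 3′ UTR of 4218 bases. It was not in the 3′ UTR used for Khsrp, Hnrnpd, Zc3h12a or Zc3h12c. The sites of the Zfp36 family are shown because the family's own mRNAs hold the letters that its proteins bind, with the nonamer in capitals and each window read on the gene's strand. The windows are at chr7:28376950-28376979, chr12:80108166-80108195 and chr17:84184913-84184942, all on the minus strand.
Zfp36: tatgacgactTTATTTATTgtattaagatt
Zfp36l1: aactgttggaTTATTTATTttagaaattct
Zfp36l2: actatttaacTTATTTATTatcttgtgaaa

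Among mRNAs known as targets of these proteins, the chemokine gene Cxcl1 carried the nonamer 2 times, Cxcl2 4 times, Lif 2 times and Ptgs2 1 time. Tnf carried it 5 times, Csf2 4 times and Il23a 1 time. A site each of Cxcl1, Cxcl2, Lif and Ptgs2 is shown with the nonamers in capitals, since their levels are described below. These are at chr5:90892615-90892644, chr5:90905336-90905365, chr11:4272039-4272068 and chr1:150105790-150105819, all on the plus strand.
Cxcl1: atttatgtatTTATTTATTccacaaagtgt
Cxcl2: atctatgtatTTATTTATTTATTaattcca
Lif: aaaggggcctTTATTTATTatttaaaactt
Ptgs2: ctgaccatatTTATTTATTtatgtgaagaa

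The letters TTCNNNGAA include the loop and closing pairs of the constitutive decay element read by Roquin, and were in the 3′ UTR of 31.7% of the 21024 genes. Rc3h1 carried them 7 times in 7181 bases and Rc3h2 3 times in 5160 bases. Nfkbid, an inhibitor of NF-κB known as a Roquin target, carried them 2 times in 559 bases, at chr7:30428395-30428424 and chr7:30428423-30428452 on the plus strand, shown with the matching letters in capitals.
Nfkbid first: tctaggtgatTTCTGTGAAatcgagcccac
Nfkbid second: acttgattgtTTCTGTGAAacactctagag
Such matches are descriptions of sequence and were not tested for binding. The 2 patterns can share their outer T letters, and a longer 3′ UTR has more room for a match of either.

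Before stimulation, the 2 decay regulators that differed between GSTM1 KD and control KD astrocytes were both members of the Zfp36 family, and both were lower in GSTM1 KD. The count of 2 of 10 compares with 10.2% of the 14899 genes tested (edgeR, adjusted p below 0.05). The median log2 fold change of the 10 genes was 0.0698, against -0.00203 over all genes tested.

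Zfp36 was at 29.1 and 27.5 CPM in control KD and at 15.3 and 17.2 CPM in GSTM1 KD before stimulation. Both GSTM1 KD libraries were below both control KD libraries. The fall was 1.74-fold (log2 fold change -0.80 ± 0.138, SE, adjusted p = 0.0296, edgeR). Zfp36l2, which is best known for roles in oocytes and blood progenitors, was at 175 and 222 CPM in control KD and 120 and 114 CPM in GSTM1 KD, so that the groups again did not overlap. Its fall was 1.70-fold (log2 fold change -0.76 ± 0.144, SE, adjusted p = 0.0348, edgeR). Zfp36l1, at 109 and 147 CPM in control KD and 121 and 164 CPM in GSTM1 KD, had overlapping groups and did not pass (log2 fold change 0.16 ± 0.205, adjusted p = 0.634, edgeR). The calls of Zfp36 and Zfp36l2 were lost when either GSTM1 KD basal library was left out, with adjusted p of 0.183 and 0.189 for Zfp36 and 0.184 and 0.281 for Zfp36l2 (edgeR). Without GSTM1 KD basal replicate 1 or replicate 2, only 1 and 3 genes of all those tested passed.

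**Figure D1:**
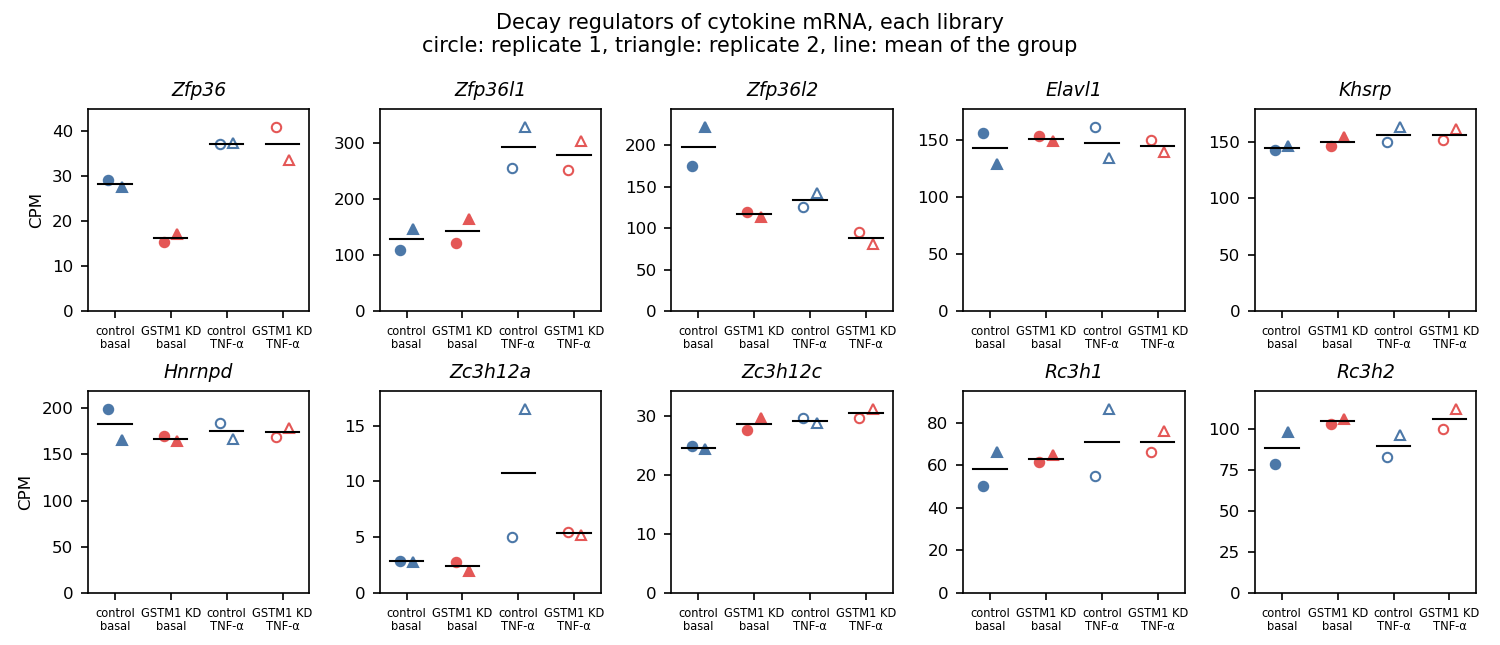
Level of each decay regulator in CPM (y axis, from 0) in the 4 groups (x axis), with 1 point per library and a line at the mean of 2 libraries. Zfp36 was lowest in the GSTM1 KD basal libraries, at 15.3 and 17.2 CPM, and Zfp36l2 was lower in GSTM1 KD than in control KD in both states.

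After TNF-α, the single decay regulator that differed between GSTM1 KD and control KD was Zfp36l2, and it was lower in GSTM1 KD. The count of 1 of 10 compares with 16.2% of 14593 genes tested. The median log2 fold change of the 10 genes was -0.0335, against -0.0106 over all genes. Zfp36l2 was at 126 and 143 CPM in control KD and 95.8 and 80.4 CPM in GSTM1 KD, without overlap, a 1.55-fold fall (log2 fold change -0.63 ± 0.128, SE, adjusted p = 0.0322, edgeR). It was thus lower in GSTM1 KD in both states. The call was lost without GSTM1 KD TNF replicate 1 or replicate 2 (adjusted p = 0.113 and 0.249, edgeR), and with these libraries left out 0 and 94 genes of all passed. Zfp36, in contrast to the basal level, was at 37.2 and 37.3 CPM in control KD and 40.9 and 33.5 CPM in GSTM1 KD, with overlapping groups (log2 fold change -0.03 ± 0.134, adjusted p = 0.909, edgeR).

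In the main edgeR fit, 1 member of the Zfp36 family rose past the threshold with TNF-α in each knockdown. The stimulated libraries of both Zfp36 and Zfp36l1 lay above the basal ones in both knockdowns. In control KD astrocytes 1 of the 10 genes rose, Zfp36l1, against 2.63% of 15332 genes called, and in GSTM1 KD astrocytes 1 of the 10 rose, Zfp36, against 2.65% called. The median log2 fold change of the 10 genes was 0.182 for the control KD response and 0.0755 for that of GSTM1 KD, against -0.0212 and -0.00713 over all genes.

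Zfp36l1 rose 2.28-fold in control KD, from 109 and 147 CPM to 256 and 328 CPM (log2 fold change 1.19 ± 0.216, SE, adjusted p = 0.0364, edgeR). In GSTM1 KD it went from 121 and 164 CPM to 251 and 304 CPM, without overlap, but did not pass (log2 fold change 0.96 ± 0.215, adjusted p = 0.0792, edgeR). This response passed by DESeq2 (log2 fold change 0.95, adjusted p = 0.0014) and by edgeR on the 4 GSTM1 KD libraries alone (log2 fold change 0.96, adjusted p = 0.0398). With the replicate number as a block it passed as well (log2 fold change 0.97 ± 0.0705, adjusted p = 0.000656, edgeR), which makes 2 regulators instead of 1 in that response, though the labels do not say what the number marks. Replicate 2 was above replicate 1 in each of the 4 groups. The call in control KD was close to the threshold, and was lost on the 4 control KD libraries alone (adjusted p = 0.151, edgeR). It was kept only without control KD TNF replicate 1, and leaving out any other single library of the 8 gave an adjusted p between 0.0533 and 0.154 (edgeR).

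Zfp36 rose 2.29-fold in GSTM1 KD, from 15.3 and 17.2 CPM to 40.9 and 33.5 CPM (log2 fold change 1.20 ± 0.127, SE, adjusted p = 0.00421, edgeR). In control KD it went from 29.1 and 27.5 CPM to 37.2 and 37.3 CPM, again without overlap, but did not pass (log2 fold change 0.40 ± 0.124, adjusted p = 0.205, edgeR). The stimulated libraries of the 2 knockdowns overlapped, and the basal ones did not. The call in GSTM1 KD was lost without GSTM1 KD basal replicate 1 or replicate 2 (adjusted p = 0.0664 and 0.0526, edgeR).

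The difference of the TNF-α responses between the knockdowns was tested directly, and 0 of the 10 genes passed, as did 0% of the 15332 genes (edgeR, with 295 genes at an unadjusted p below 0.05, and 27 genes past the threshold by DESeq2, none of the 10 among them). The log2 response of Zfp36 was 0.80 ± 0.177 (SE) larger in GSTM1 KD than in control KD (unadjusted p = 0.00253, rank 19 of 15332, adjusted p = 1, edgeR). This comparison uses the same basal libraries as the basal comparison of Zfp36, so the values are not independent. For Zfp36l1 the difference was -0.23 ± 0.301 and for Zfp36l2 it was 0.15 ± 0.202 on the log2 scale. The median difference of the 10 genes was -0.0855, against 0.0168 over all genes.

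Zfp36l2 moved the other way from its relatives after TNF-α without passing the test. In control KD it went from 175 and 222 CPM to 126 and 143 CPM (log2 fold change -0.56 ± 0.142, adjusted p = 0.111, edgeR), and in GSTM1 KD from 120 and 114 CPM to 95.8 and 80.4 CPM (log2 fold change -0.41 ± 0.143, adjusted p = 0.312, edgeR). In both knockdowns the stimulated libraries lay below the basal ones. DESeq2, the tool the study used, put the control KD value past the threshold (log2 fold change -0.55, adjusted p = 0.0283).

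**Figure D2:**
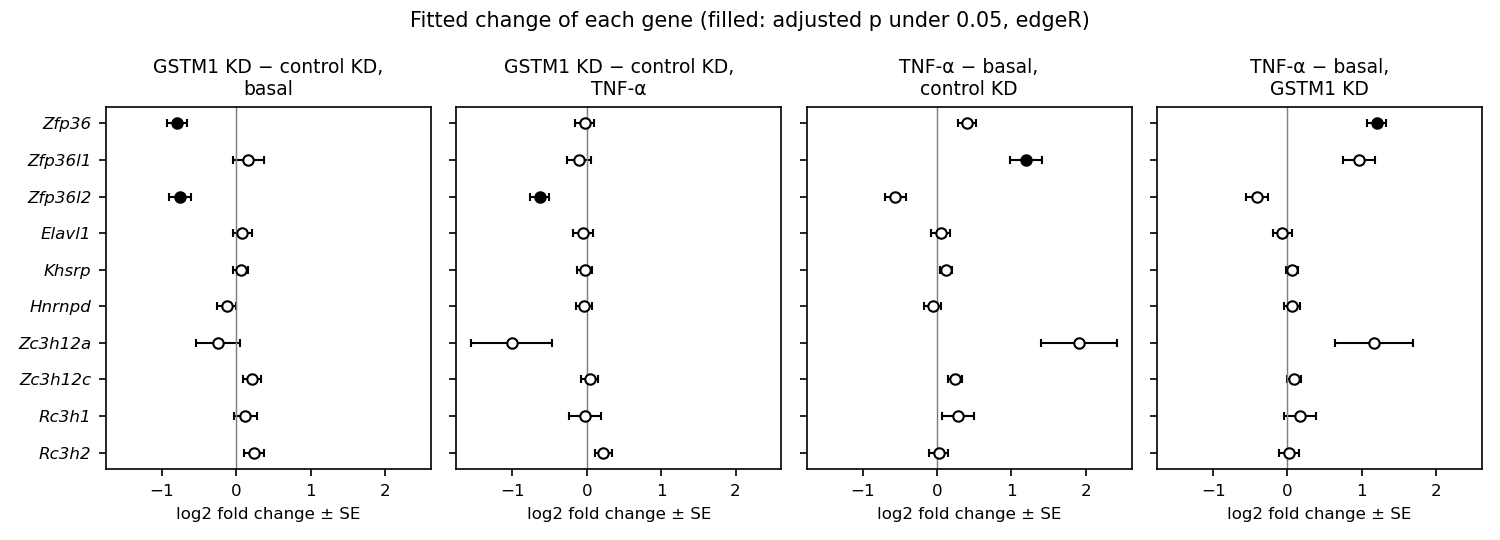
Fitted log2 fold change with its SE (x axis) of each decay regulator (y axis) in 4 comparisons, with filled points for genes past an adjusted p of 0.05 by edgeR. Filled points are Zfp36 and Zfp36l2 in the basal comparison, Zfp36l2 after TNF-α, Zfp36l1 in the response of control KD and Zfp36 in the response of GSTM1 KD.

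Per transcript length, Zfp36l2 and Zfp36l1 made up most of the family in every library. The summed level of Zfp36, Zfp36l1 and Zfp36l2 was 203 ± 33.9 TPM (SD, n = 2) in control KD and 168 ± 18.1 TPM in GSTM1 KD before stimulation, and 273 ± 33.5 and 248 ± 18.3 TPM after TNF-α. Zfp36l2 was the most abundant of the 3 in basal control KD, with 50.9 ± 0.251% of the sum, against 39.1 ± 1.87% for Zfp36l1. In the other 3 groups Zfp36l1 held the largest share, with 54.9 ± 5.64% in basal GSTM1 KD, 65.3 ± 2.49% in control KD after TNF-α and 70.4 ± 5.52% in GSTM1 KD after TNF-α. The share of Zfp36l2 went down to 18.8 ± 3.38% in the last group. Zfp36 held between 6.87% and 12.3% in every library. These shares are descriptions without a test.

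Across all 10 genes, Hnrnpd was the most abundant in every group, at 229 TPM (range 201 to 258) in basal control KD, and its range overlapped that of Zfp36l1 after TNF-α in both knockdowns. In basal control KD, Elavl1 (119 TPM), Zfp36l2 (103 TPM) and Zfp36l1 (79.5 TPM) followed with overlapping neighbours, then Khsrp (65.8 TPM). Zfp36 (19.9 TPM) and Rc3h2 (17.9 TPM) overlapped as the next pair, and Rc3h1 (9.30 TPM), Zc3h12c (6.72 TPM) and Zc3h12a (2.04 TPM) came last without overlap. After TNF-α, Zfp36l1 moved up to the second place in both knockdowns, at 178 TPM in control KD and 175 TPM in GSTM1 KD.

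Elavl1, Khsrp and Hnrnpd did not pass in any comparison by edgeR or DESeq2, and their fitted log2 fold changes lay close to 0. Elavl1 ranged from 129 to 161 CPM over the 8 libraries, Khsrp from 143 to 163 CPM and Hnrnpd from 164 to 199 CPM. For Elavl1 the log2 fold change between knockdowns was 0.08 ± 0.129 (SE) before stimulation and -0.05 ± 0.129 after TNF-α. For Khsrp the same values were 0.06 ± 0.102 and -0.03 ± 0.0981, and for Hnrnpd -0.13 ± 0.129 and -0.04 ± 0.106. Their log2 responses to TNF-α lay between -0.07 and 0.12. Over 9 other settings, the Elavl1 value between knockdowns ran from -0.14 to 0.10 before stimulation and from -0.22 to -0.02 after TNF-α.

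The effective length of Elavl1, however, differed between the 2 knockdowns. The effective length averages the lengths of a gene's transcripts, each weighted by its share, and was 2057 and 2058 bases in control KD and 2397 and 2439 bases in GSTM1 KD before stimulation. After TNF-α it was 2005 and 2122 bases in control KD and 2335 and 2322 bases in GSTM1 KD. All 4 GSTM1 KD libraries were therefore above all 4 control KD libraries. Hnrnpd was also longer in GSTM1 KD within each state, at 1464 and 1437 against 1324 and 1420 bases before stimulation. After TNF-α it was at 1526 and 1526 against 1366 and 1496 bases, so the knockdowns overlapped across states. How common such shifts are over all genes was not tested. These values are descriptions, since the transcript estimates behind them were not used here.

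**Figure D3:**
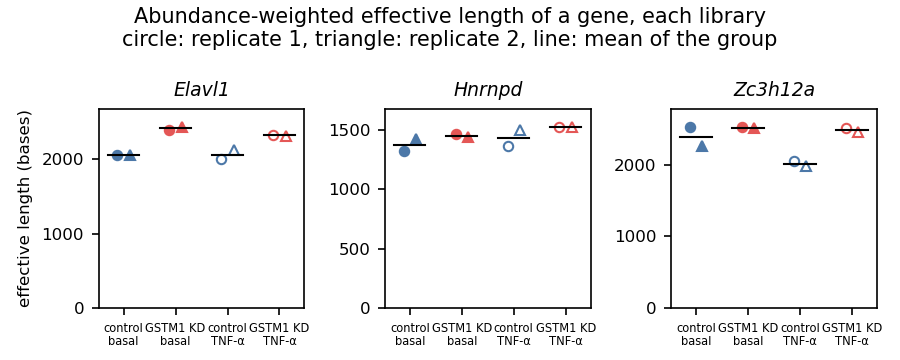
Effective length in bases (y axis, from 0) of Elavl1, Hnrnpd and Zc3h12a in each library of the 4 groups (x axis), with a line at the mean of 2 libraries. Elavl1 was at 2005 to 2122 bases in control KD and 2322 to 2439 bases in GSTM1 KD.

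Zc3h12a, the Regnase-1 gene, had the lowest TPM of the 10 in every group except control KD after TNF-α, where its range of 4.14 to 13.9 TPM overlapped that of Zc3h12c. It was at 2.85 and 2.81 CPM in basal control KD, from 101 and 72 counts, and at 2.75 and 2.00 CPM in basal GSTM1 KD, from 64 and 40 counts. After TNF-α it was at 4.99 and 16.5 CPM in control KD and at 5.49 and 5.23 CPM in GSTM1 KD. Control KD TNF replicate 2 thus stood apart at 16.5 CPM, while the other 3 stimulated libraries were within 4.99 to 5.49 CPM, and all 4 stimulated libraries were above all 4 basal ones.

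The log2 response of Zc3h12a to TNF-α was 1.91 ± 0.507 (SE) in control KD (adjusted p = 0.13, edgeR) and 1.17 ± 0.524 in GSTM1 KD (adjusted p = 0.499, edgeR), and neither passed by this test. DESeq2 put the control KD response past the threshold (log2 fold change 1.93, adjusted p = 0.0041), as did edgeR without a filter on low counts (adjusted p = 9.46e-10). Without that filter, Zc3h12a also passed in the GSTM1 KD response (adjusted p = 0.00228, edgeR). It then passed as lower in GSTM1 KD after TNF-α as well (adjusted p = 0.000583, edgeR). Without control KD TNF replicate 2 the value in control KD was 0.83 (adjusted p = 0.319, edgeR), and without replicate 1 it was 2.54 (adjusted p = 0.00563, edgeR). Between knockdowns after TNF-α the log2 fold change was -1.01 ± 0.546 (adjusted p = 0.239, edgeR), and it was 0.08 without control KD TNF replicate 2 and -1.64 without replicate 1 (adjusted p = 0.842 and 0.00395, edgeR). That comparison of Zc3h12a thus turned on 1 library. Its effective length was also lower in the control KD libraries after TNF-α, at 2053 and 1983 bases, than in the other 6 libraries, at 2260 to 2531 bases.

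Zc3h12c, Rc3h1 and Rc3h2 did not pass in any comparison. Zc3h12c was at 24.8 and 24.3 CPM in basal control KD and between 27.5 and 31.1 CPM in the other 6 libraries, with a log2 fold change of 0.21 ± 0.123 between knockdowns before stimulation (adjusted p = 0.286, edgeR). Rc3h2 was higher in both GSTM1 KD libraries of each state, at 103 and 106 against 78.6 and 97.9 CPM before stimulation and at 100 and 112 against 82.7 and 95.9 CPM after TNF-α. Its log2 fold changes were 0.24 ± 0.134 and 0.22 ± 0.115 (adjusted p = 0.266 and 0.223, edgeR). Rc3h1 was between 50.1 and 86.4 CPM, and its control KD libraries differed by more from each other than the group means did. Without control KD basal replicate 2, Rc3h1 and Rc3h2 passed before stimulation as higher in GSTM1 KD (log2 fold changes 0.32 and 0.40, adjusted p = 0.0477 and 0.0165, edgeR).

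The activity of Zfp36 is set largely after translation. The kinase MK2 (Mapkapk2) phosphorylates it downstream of p38, 14-3-3 proteins then bind it and keep it from recruiting the deadenylase, and the phosphatase DUSP1 switches p38 off. Of 10 genes in a list of such kinases, phosphatases and partners, 1 was higher and 2 were lower in GSTM1 KD before stimulation, and the same counts held after TNF-α, while 0 passed in either TNF-α response by edgeR (2 in control KD and 1 in GSTM1 KD at an unadjusted p below 0.05, and Dusp1, as lower in control KD, by DESeq2). Over all genes 4.6% were higher and 5.62% lower before stimulation, and 7.26% and 8.92% after TNF-α. The median log2 fold change of the list was -0.00273 before stimulation and -0.0771 after TNF-α.

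Mapkapk2 was at 45.1 and 43.9 CPM in basal control KD and at 118 and 128 CPM in basal GSTM1 KD (log2 fold change 1.47 ± 0.104, SE, adjusted p = 0.0132, edgeR). After TNF-α it was at 47.9 and 46.5 against 114 and 135 CPM (log2 fold change 1.37 ± 0.117, adjusted p = 0.00981, edgeR). Every GSTM1 KD library was above every control KD library, with or without TNF-α. Ywhab, which encodes 14-3-3 beta, was at 350 and 352 against 146 and 121 CPM before stimulation and 340 and 368 against 138 and 129 CPM after TNF-α (log2 fold changes -1.40 ± 0.134 and -1.43 ± 0.106, adjusted p = 0.016 and 0.00981, edgeR). Dusp1 was lower in GSTM1 KD as well, at 125 and 154 against 79.9 and 80.1 CPM and at 101 and 96.8 against 66.4 and 59.4 CPM (log2 fold changes -0.80 ± 0.131 and -0.68 ± 0.105, adjusted p = 0.027 and 0.019, edgeR). All 3 genes passed under 9 of 9 other settings in both states. Their calls were lost without either GSTM1 KD library of the state (adjusted p up to 0.223, edgeR), except that of Mapkapk2 without GSTM1 KD TNF replicate 2. The other 14-3-3 genes of the list, Ywhaz and Ywhag, did not pass and had log2 fold changes of 0.18 ± 0.121 and 0.17 ± 0.11 before stimulation and 0.21 ± 0.115 and 0.22 ± 0.104 after TNF-α. Ywhaz was at 882 and 929 against 1010 and 1040 CPM and Ywhag at 407 and 399 against 449 and 456 CPM before stimulation.

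**Figure D4:**
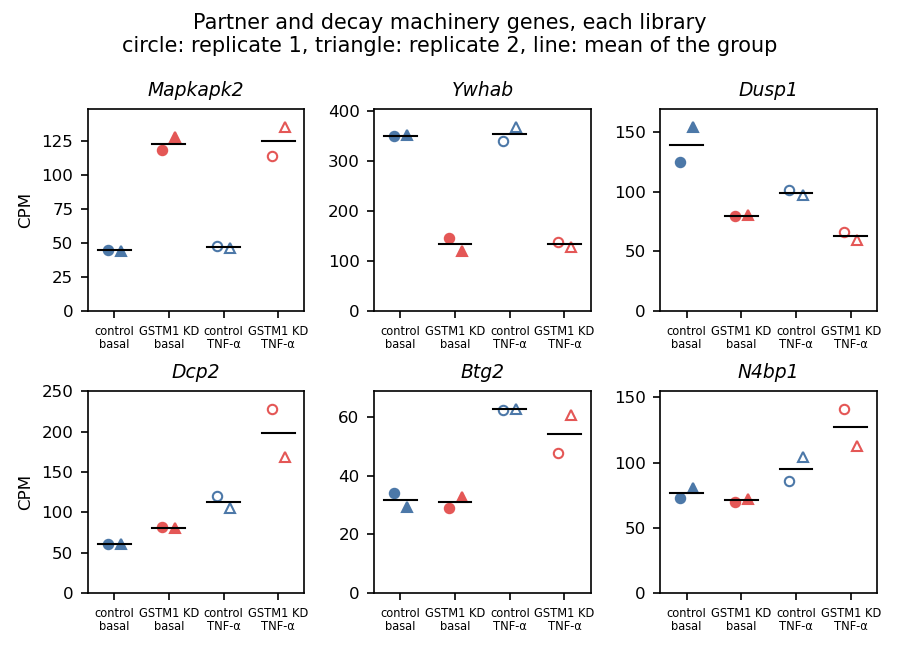
Level in CPM (y axis, from 0) of 3 genes that act on Zfp36 and of Dcp2, Btg2 and N4bp1 in each library of the 4 groups (x axis), with a line at the mean of 2 libraries. Mapkapk2 was at 114 to 135 CPM in GSTM1 KD and 43.9 to 47.9 CPM in control KD, and Dcp2 was at 228 and 168 CPM in GSTM1 KD after TNF-α.

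Downstream of the regulators stand the enzymes that remove the poly(A) tail and the cap and degrade the body of the mRNA. In a list of CCR4-NOT subunits and deadenylases, 0 of 18 genes tested passed between knockdowns before stimulation by edgeR (3 at an unadjusted p below 0.05, and Cnot6l as higher and Btg1 as lower by DESeq2), and 1 was higher and 3 were lower in GSTM1 KD after TNF-α by edgeR (Cnot6l as higher and 0 as lower by DESeq2), beside 10.2% and 16.2% of all genes called. In the TNF-α responses Btg2, which recruits deadenylases to mRNAs, rose in control KD from 34.1 and 29.3 to 62.6 and 62.8 CPM and in GSTM1 KD from 29.0 and 32.8 to 47.9 and 60.8 CPM (log2 fold changes 0.98 ± 0.14 and 0.81 ± 0.141, adjusted p = 0.0147 and 0.031, edgeR). The control KD call of Btg2 was lost on its 4 libraries alone (adjusted p = 0.0724, edgeR) and without control KD basal replicate 2 or either control KD TNF library. Its GSTM1 KD call was lost without either GSTM1 KD basal library, GSTM1 KD TNF replicate 2 or control KD TNF replicate 2 (adjusted p up to 0.268, edgeR). Its relative Btg1 had log2 responses of 0.39 ± 0.0899 in control KD and 0.51 ± 0.0907 in GSTM1 KD (adjusted p = 0.0836 and 0.0332, edgeR). DESeq2 called both, while the edgeR call in GSTM1 KD was lost under 2 of 9 other settings (adjusted p up to 0.201) and without any single library other than the control KD basal ones.

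Of 16 genes of decapping and 5′ to 3′ decay, 1 was higher and 0 were lower in GSTM1 KD before stimulation, and 1 was higher and 1 lower after TNF-α, which does not exceed the 10.2% and 16.2% of all genes called. The lower gene was Lsm4, a subunit of the Lsm ring that acts in decapping, at 51.8 and 50.0 against 35.8 and 33.8 CPM (log2 fold change -0.57 ± 0.104, adjusted p = 0.0258, edgeR). It passed under 9 of 9 other settings and was lost without either GSTM1 KD TNF library. Dcp2, which encodes the decapping enzyme, passed in all 4 comparisons, though not under every setting. It was at 60.4 and 60.2 CPM in basal control KD, 81.3 and 80.2 CPM in basal GSTM1 KD, 120 and 105 CPM in control KD after TNF-α, and 228 and 168 CPM in GSTM1 KD after TNF-α. Thus it rose with TNF-α in both knockdowns and was higher in GSTM1 KD in both states. The log2 fold change between knockdowns was 0.42 ± 0.0936 before stimulation (adjusted p = 0.0481, edgeR) and 0.79 ± 0.174 after TNF-α (adjusted p = 0.0396, edgeR). The log2 response of Dcp2 to TNF-α was 0.90 ± 0.147 among control KD and 1.29 ± 0.148 among GSTM1 KD libraries (adjusted p = 0.0251 and 0.00547, edgeR), and the difference of the responses did not pass (0.39 ± 0.207, adjusted p = 1, edgeR). The call of Dcp2 before stimulation was lost under 3 of 9 other settings (highest adjusted p = 0.0884, edgeR on all 8 libraries), that after TNF-α with effective lengths as offsets (adjusted p = 0.0596, edgeR), and that of the control KD response on its 4 libraries alone (adjusted p = 0.0778, edgeR). The calls between knockdowns were also lost without either GSTM1 KD library of the state. That of the control KD response was lost without any single basal library or either control KD TNF library, and that of the GSTM1 KD response without either GSTM1 KD basal library.

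Of 14 genes tested of the exosome and Ski complex, which degrade mRNA from its 3′ end, 0 passed by edgeR in any comparison, with log2 fold changes between -0.72 and 0.24. At most 4 of them were at an unadjusted p below 0.05, after TNF-α between knockdowns, where DESeq2 put Exosc1 past the threshold as lower in GSTM1 KD. Of 7 other Regnase relatives and partners tested, the ribonuclease gene N4bp1 rose with TNF-α in GSTM1 KD, from 69.9 and 72.2 to 141 and 113 CPM (log2 fold change 0.83 ± 0.137, adjusted p = 0.0253, edgeR), a call lost without either GSTM1 KD basal library or GSTM1 KD TNF replicate 1 (adjusted p up to 0.224, edgeR). In control KD, N4bp1 went from a mean of 76.9 to 95 CPM and did not pass, nor did the difference of its responses. DESeq2 put Malt1, of the same list, past the threshold as higher after TNF-α in control KD. In that list 0 passed between knockdowns by edgeR or DESeq2 (0 before stimulation and 3 after TNF-α at an unadjusted p below 0.05). Of 21 other AU-rich element and 3′ UTR binding proteins, 1 was higher and 1 lower in GSTM1 KD in each state, which is not above the shares of all genes called, 10.2% before stimulation and 16.2% after TNF-α. The higher gene in both states was Elavl3, a neuronal relative of Elavl1, at 9.10 and 11.1 against 24.7 and 30.1 CPM before stimulation (log2 fold change 1.44). The lower one was Ptbp1, a splicing regulator, at 315 and 290 against 211 and 211 CPM (log2 fold change -0.52), a basal call lost under 2 of 9 other settings. Beside Elavl3 stands the sum of 8 neuron markers, at 293 to 298 TPM in control KD and 326 to 374 TPM in GSTM1 KD before stimulation, whose part in that value was not tested.

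mRNAs known as targets of these regulators were lower in GSTM1 KD wherever they passed. Of 20 such mRNAs, 9 were abundant enough to be tested before stimulation and 12 after TNF-α. Before stimulation 4 of the 9 were lower and 0 higher in GSTM1 KD, and the median was -1.23 on the log2 scale. With the replicate block 8 of the 9 were lower, as also without a filter, and 5 were lower by DESeq2. After TNF-α 10 of the 12 were lower and 0 higher, and the median was -1.51. That count was 11 with the replicate block, 12 without a filter and 9 on all 8 libraries. With either GSTM1 KD library of the state left out, 0 of the 9 and 0 of the 12 passed by edgeR. Csf2 and Nfkbid, both among the 10, were tested only because their stimulated control KD libraries were high, so these counts are a description and are not set against the share of all genes. The list is of cytokine and feedback mRNAs whose lower levels in these libraries were already known when it was chosen, so its direction is no independent evidence. Nor do levels separate synthesis from decay, since no half-life was measured.

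The nonamer-bearing chemokine mRNA Cxcl1 was at 9.41 and 6.21 CPM in basal control KD against 2.19 and 1.65 CPM in GSTM1 KD (log2 fold change -2.02 ± 0.319, adjusted p = 0.0261, edgeR; adjusted p = 0.0738 on all 8 libraries). After TNF-α it was at 32.9 and 122 CPM against 9.28 and 11.0 CPM (log2 fold change -2.96 ± 0.619, adjusted p = 0.0346, edgeR). The log2 fold change was -1.73 without control KD TNF replicate 2 and -3.62 without replicate 1, and the call was lost without GSTM1 KD TNF replicate 1 or replicate 2 (adjusted p = 0.141 and 0.147, edgeR). Control KD TNF replicate 2, the library in which Zc3h12a was highest, was the higher of its group for Cxcl1, Cxcl2 and Ptgs2. It was the lower of its group for Lif, Il6 and Ier3, and a link to Zc3h12a was not tested. Cxcl2 was at 22.8 and 38.1 against 4.20 and 3.85 CPM after TNF-α (log2 fold change -2.93 ± 0.288, adjusted p = 0.0106, edgeR). Its basal value did not pass in the main edgeR fit (adjusted p = 0.0641) but did under 4 of 8 other settings. These were DESeq2 (log2 fold change -2.26, adjusted p = 0.0125) and edgeR on all 8 libraries, with the replicate block and without a filter (adjusted p = 0.0313, 0.00364 and 3.96e-06). Lif, a cytokine of the IL-6 family, was at 115 and 88.8 against 44.8 and 42.0 CPM before stimulation and 267 and 255 against 103 and 79.7 CPM after TNF-α (log2 fold changes -1.23 ± 0.152 and -1.53 ± 0.152, adjusted p = 0.019 and 0.0108, edgeR).

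Ptgs2, which encodes cyclooxygenase-2, was at 168 and 112 against 58.6 and 74.4 CPM and at 330 and 338 against 130 and 130 CPM (log2 fold changes -1.07 ± 0.227 and -1.38 ± 0.0968, adjusted p = 0.043 and 0.00981, edgeR). Among mRNAs without the nonamer in the transcript used, Il6 and Ier3, which are known targets of Regnase-1 or Zfp36, were lower after TNF-α. Ccl2, also without it, was lower in both states, at means of 16.9 against 1.62 CPM before stimulation and 1040 against 517 CPM after TNF-α. Over 9 other settings its log2 fold changes were -3.41 to -3.36 and -1.04 to -0.99. It passed under 9 of these settings before stimulation and 8 after TNF-α. Il6 was at 15.5 and 14.3 against 7.34 and 3.33 CPM (log2 fold change -1.49 ± 0.368, adjusted p = 0.049, edgeR; -2.17 and -1.04 without GSTM1 KD TNF replicate 1 and replicate 2, where it did not pass), and Ier3 at 182 and 149 against 76.7 and 63.8 CPM (log2 fold change -1.26 ± 0.153, adjusted p = 0.0129, edgeR; adjusted p = 0.112 on all 8 libraries). The Roquin target Nfkbid rested on few reads, with 21 and 16 counts in stimulated control KD libraries against only 3 and 4 in GSTM1 KD. Tnf itself was too low for the test, with at most 17 counts in a library. Nfkbiz and Vegfa did not pass after TNF-α, with log2 fold changes of -1.15 ± 0.477 and -0.51 ± 0.142 (adjusted p = 0.148 and 0.0635, edgeR). The Nfkbiz value ran from -1.73 to -0.18 with 1 library left out, and it passed under 1 of 9 other settings, without a filter. Vegfa passed as lower by DESeq2 (adjusted p = 0.0491) and under 5 of 9 other settings in all.

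**Figure D5:**
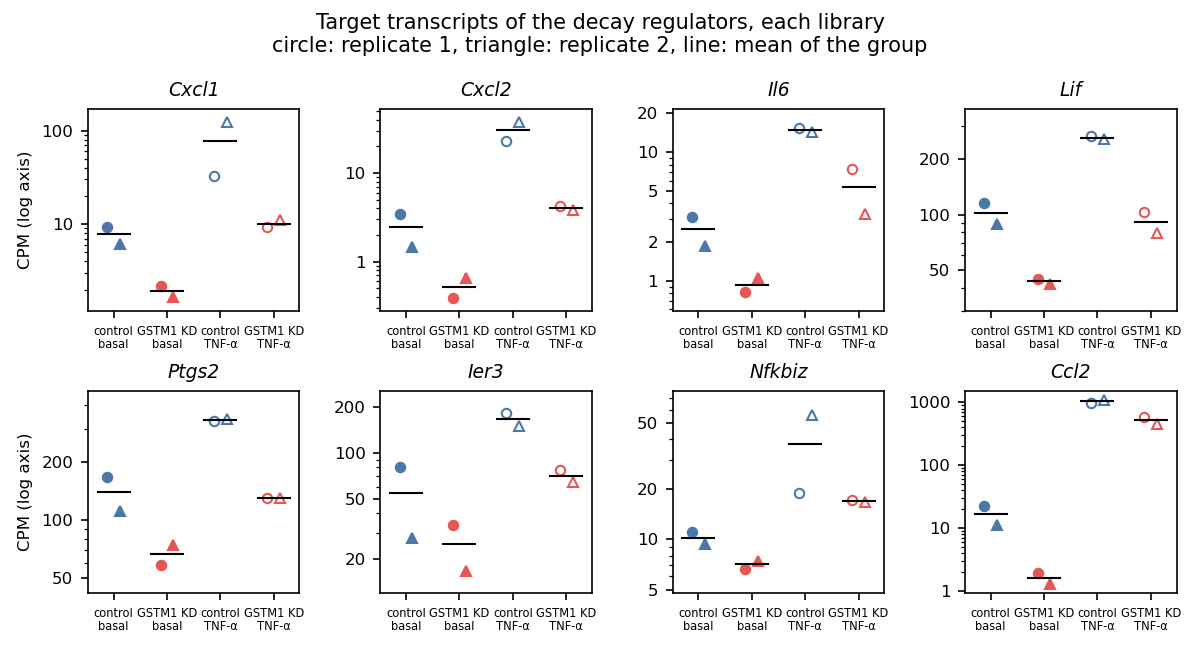
Level in CPM (y axis, logarithmic) of 8 mRNAs known as targets of the decay regulators in each library of the 4 groups (x axis), with a line at the mean of 2 libraries. The GSTM1 KD libraries lay below the control KD libraries of the same state for all of these mRNAs except Ier3 before stimulation, where 33.5 CPM in a GSTM1 KD library was above 27.8 CPM in a control KD library.

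TNF-α raised 8 of the 12 target mRNAs in control KD and 6 of the 12 in GSTM1 KD, with 0 lower in either (edgeR). With the replicate block, 9 were higher and 1 lower in control KD, and 8 higher and 1 lower in GSTM1 KD. Without a filter, 1 was lower in GSTM1 KD. The counts of higher mRNAs depended on the fit. They were 9 and 8 by DESeq2, 2 and 8 on the 4 libraries of each response alone, 5 and 3 among the 8 mRNAs left with at least 10 counts in every library, and 10 and 10 without a filter, and with a single library left out they ran from 6 to 8 in control KD and from 2 to 7 in GSTM1 KD. Csf2, Il23a and Nfkbid were tested only because they were high after TNF-α, so these counts are again a description. Their median log2 response was 2.20 among control KD libraries and 1.93 among GSTM1 KD libraries. The second median was 1.73 with Csf2 and Il23a, which had 3 counts or fewer in each basal GSTM1 KD library, set to the bound that 3 counts per library allow. On that bound Csf2 was at least 3.96-fold higher and Il23a at least 23.4-fold higher after TNF-α in GSTM1 KD. Csf2 reached 94 and 68 counts in control KD but 14 and 8 in GSTM1 KD. For the difference of the responses, 0 of the 12 passed in the main edgeR fit, and 1 was at an unadjusted p below 0.05. The median difference of the 12 was -0.281 on the log2 scale. DESeq2 called Ccl2, whose response was the larger one in GSTM1 KD, against the direction of that median. The log2 difference of Ccl2 was 2.32 to 2.38 over 8 other settings, and it passed under 2 of them.

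Over the 8 libraries, the genes whose log2 level was most like that of Zfp36, among 11233 genes at a mean of 5 CPM or more, were Tspo (Pearson r = 0.984), Rras (0.967) and Rnf19b (0.956). For Zc3h12a they were Slc39a6 (0.985), Stat5a (0.983) and Prpf38b (0.981). These are the highest of many correlations over few libraries that share the same group differences, and they are given as a description only.

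By the annotation (GENCODE M21, GRCm38), Zfp36 lies at chr7:28376784-28380253, Zfp36l1 at chr12:80107754-80113013, Zfp36l2 at chr17:84183931-84187947 and Zc3h12a at chr4:125118423-125127840, all on the minus strand. Exons of Zfp36, Zfp36l1, Zfp36l2, Elavl1, Khsrp, Hnrnpd and Zc3h12c overlap an annotated gene on the opposite strand, for Elavl1 the chemokine gene Ccl25 and for Zfp36 the gene Gm44710. The libraries were strand-specific, but the strand setting of the counting is not given in the sources used here, so these levels may include reads of the partner.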

How the data were processed

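Expected counts, deposited by the authors, are the fragments per gene estimated by RSEM (version 1.3.0) after mapping 100-base paired-end reads of strand-specific libraries to GRCm38 with STAR (version 2.5.4b). They are not normalized and not always whole, since shared reads are divided. TPM values and effective lengths were also deposited by the authors, and were used only for levels between genes, marker sums and descriptions.

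Groups were taken from the labels, 2 libraries in each of 4. Expected counts were rounded and tested with edgeR (version 4.0.16, R version 4.3.3): TMM factors, filterByExpr by group, the quasi-likelihood test, and Benjamini-Hochberg adjustment over all genes at 0.05. Knockdowns were compared on the 4 libraries of each state; responses to TNF-α and their difference used all 8, with one coefficient per group. CPM was scaled by each library's total times its TMM factor. Over simulated counts the test was checked for known changes. DESeq2 (version 1.42.0), the study's tool, other scalings and filters, a replicate block and leaving out each library were alternatives. Totals were 17349676 to 34434633 counts, and averaged over genes, counting error was small against the replicate spread.

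The regulators and all gene lists were chosen with earlier results of these data known. Named were all 10 regulators and the 3 genes most like Zfp36 and Zc3h12a. From other lists, at most 3 genes a comparison past the threshold were named, and not all such genes. Some detected targets and markers, some genes called only by DESeq2 and some that did not pass were named as well. Sequences came from the GENCODE M21 transcripts.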

Additional observations from a re-analysis of the deposited data

How the results depend on the processing

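Over 9 other settings of tool, scaling, filter, samples, block and length, 428 of 440 values of the 10 regulators kept their side of the threshold. The sign changed, or the value was 0 at 2 decimals, in 20 of 440, and none of these passed the test in either fit. Zfp36 and Zfp36l2 at the basal level, Zfp36l2 after TNF-α and Zfp36 in the response of GSTM1 KD passed under each of these settings. Regulators past the threshold numbered 3 by DESeq2, 3 without a filter and 0 on the 4 libraries concerned alone in the response of control KD (main 1), 2 by DESeq2, 4 without a filter, 2 with the replicate block and 2 on those 4 libraries alone in the response of GSTM1 KD (main 1), and 2 without a filter between knockdowns after TNF-α (main 1). Over all genes the counts past the threshold moved more. At the basal level (main 1524) they were 2492 by DESeq2, 3957 without a filter, 4712 with the replicate block and 2762 on all 8 libraries. After TNF-α (main 2360) they were 4540 without a filter and 4302 with the replicate block. For the response of control KD (main 403) they were 742 by DESeq2, 1255 without a filter, 988 with the block and 72 on 4 libraries, and for that of GSTM1 KD (main 406) 630, 1050, 808 and 691. For the difference of the responses (main 0) they were 27 by DESeq2 and 134 without a filter. With library size alone as scaling, the majority of calls turned to higher in GSTM1 KD, 870 of 1654 at the basal level and 1350 of 2513 after TNF-α, against 686 of 1524 and 1059 of 2360.

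With a single library left out, 301 of 320 values of the regulators kept their side of the threshold. The sign changed, or the value was 0, in 43 of 320, none of them called in either fit. The regulators past the threshold ran from 0 to 4 at the basal level, from 0 to 2 after TNF-α, from 0 to 2 in the response of control KD and from 0 to 1 in that of GSTM1 KD. Over all genes the counts ran from 1 to 5256, from 0 to 5028, from 180 to 313 and from 74 to 444, and from 0 to 2 for the difference of the responses. The lone library of a group is then assumed to vary like the others. What the replicate number marks is not in the labels. Deviations of equally numbered libraries correlated at 0.294 to 0.821 between groups over 11234 genes, and in the replicate block no call of the 10 regulators was lost, while the response of Zfp36l1 in GSTM1 KD was gained (log2 fold change 0.97 ± 0.0705, adjusted p = 0.000656, edgeR). Averaged over genes, the variance between the 2 libraries of a group was 13.8 to 55.4 times that of counting error alone. Abundant genes weigh most in that average. Depth can also limit genes with few counts, such as Tnf, Csf2, Il23a, Nfkbid and Folr1. The same holds at the basal level for Cxcl2, Il6 and Zc3h12a, the last with 40 to 101 counts.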
